A study of Mus musculus with 32 samples.

Results

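The genes described here are those of 7 chemokines that attract lymphocytes (Cxcl9, Cxcl10, Cxcl11, Cxcl13, Cxcl16, Ccl5 and Ccl19) and 2 receptors that lymphocytes use to follow such signals (Cxcr3 and Ccr7). They were chosen by symbol, and all 9 were found among the 22609 genes of the culture and Rag1-/- tables and among the 25277 genes of the day 4 and day 6 tables. Their RNA was measured in 32 libraries of E0771, a mammary carcinoma cell line from a C57BL/6 mouse, in a study of the collagen receptor tyrosine kinase DDR1 in mammary tumour growth. The culture table held 3 Ddr1 wild-type (WT) libraries, labelled E0771-P, EV and Ctrl and numbered 1 to 3 here, and 2 Ddr1 knockout (KO) libraries, labelled 3-6 and 3-7 and numbered 1 and 2, with no word on whether each is 1 clone. The Rag1-/- table held tumours of WT cells (n = 5) and KO cells (n = 5) in hosts that lack mature T and B cells but still have natural killer and myeloid cells. The day 4 table held tumours moved from Rag1-/- to C57BL/6 mice, which have a full immune system, from WT cells (n = 4) and KO cells (n = 5). The day 6 table held tumours in C57BL/6 mice given control IgG (n = 4) or an antibody labelled hDDR1 ECD (n = 4), with no Ddr1 genotype in the labels. The labels give neither the age of the mice nor whether libraries came from separate animals or cultures, so p-values measure the spread between these libraries, which may in part be technical.

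Chemokines are small secreted proteins that bind G protein-coupled receptors and draw cells along their gradients. Cxcl9, Cxcl10 and Cxcl11 are induced by interferon gamma and share the receptor Cxcr3, which marks activated T cells and natural killer cells. Cxcl13 guides B cells and follicular helper T cells through Cxcr5, Cxcl16 is a membrane-anchored ligand of Cxcr6, Ccl5 acts through Ccr1 and other CC chemokine receptors and is also made by activated T cells, and Ccl19 guides Ccr7-bearing naive T cells and mature dendritic cells into lymphoid tissue.

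On GRCm38, the build called mm10 in the submitters' processing notes, the 3 Cxcr3 ligands lie side by side on the minus strand of chromosome 5. Cxcl9 spans positions 92321347 to 92328079, Cxcl10 spans 92346638 to 92348889 and Cxcl11 spans 92359544 to 92365485, with gaps of 18558 and 10654 bases. GENCODE lists Cxcl11 as a polymorphic pseudogene, so its RNA here may not give a working chemokine. Cxcl13 lies on the plus strand of the same chromosome (95956951 to 95961068). Cxcl16 (70453983 to 70459984), Ccl5 (83525778 to 83530518) and Ccr7 (99144196 to 99155077) are on the minus strand of chromosome 11, Ccl19 (42754525 to 42756577) on that of chromosome 4 and Cxcr3 (101731535 to 101734269) on that of chromosome X.

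The promoters of Cxcl9 and Cxcl10 are shown because these neighbours, with a common receptor and a common inducer, went in reads from a large Cxcl10 excess to a Cxcl9 excess across the tumour sets. Each runs 5′ to 3′ on the minus strand from 250 bases before the start to 50 after it, from RefSeq's GRCm38.p6 annotation (chr5:92328030-92328329 for Cxcl9 and chr5:92348840-92349139 for Cxcl10). Capitals mark matches to an NF-kB-like motif (GGGNNNNNCC), an interferon-stimulated response element (GAAANNGAAA) and a TATA-like motif (TATAAA), searched on both strands.
Cxcl9 promoter: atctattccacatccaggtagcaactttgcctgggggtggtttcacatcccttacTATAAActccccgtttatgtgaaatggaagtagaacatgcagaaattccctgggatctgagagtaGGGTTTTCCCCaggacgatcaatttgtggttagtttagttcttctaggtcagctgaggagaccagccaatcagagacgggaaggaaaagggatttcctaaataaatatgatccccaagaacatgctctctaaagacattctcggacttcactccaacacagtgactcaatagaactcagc
Cxcl10 promoter: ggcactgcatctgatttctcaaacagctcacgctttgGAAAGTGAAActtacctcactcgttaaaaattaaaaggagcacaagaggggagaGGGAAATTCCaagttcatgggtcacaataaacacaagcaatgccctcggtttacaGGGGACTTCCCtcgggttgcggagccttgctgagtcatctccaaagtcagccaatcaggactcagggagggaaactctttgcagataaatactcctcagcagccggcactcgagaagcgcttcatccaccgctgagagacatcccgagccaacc
In Cxcl10, the interferon-stimulated response element began 213 bases before the start, and NF-kB-like matches began at 159, 104 and 103, the last pair overlapping. In Cxcl9, a pair of overlapping NF-kB-like matches began 130 and 129 bases before the start, TATAAA began at 195, and GAAANNGAAA had no match in this window. Among 32851 promoters of this length, 50.8% held GGGNNNNNCC, 3.44% held GAAANNGAAA and 13.6% held TATAAA. A motif of the interferon gamma-activated kind (TTCNNNGAA), which 8.30% of promoters held, had no match in either window. The RefSeq promoter table held 5 of the 9 genes.

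The cultures had 29270919 to 37425032 reads per library, the Rag1-/- tumours 18967300 to 25516204, the day 4 tumours 20148955 to 28600639 and the day 6 tumours 20220028 to 39732635. Ddr1 was 171 to 213 reads per 1000000 reads of the library (RPM) in the WT cultures and 19.0 and 26.7 in the KO cultures, so the libraries fell as their labels say. It was 174 to 189 RPM in WT and 33.3 to 42.3 in KO tumours in Rag1-/- hosts, and 132 to 175 against 27.9 to 49.7 at day 4. At day 6 it was 15.9 to 22.1 RPM with IgG and 18.5 to 28.5 with antibody. In culture, Cd3e and Cd8a of the T cell markers and Ms4a1 of the B cell markers were at or near 0, and the 9 T cell markers found summed to 2.11 to 3.30 RPM, led by Lck. Those markers summed to 8.35 to 12.8 RPM in Rag1-/- tumours, 4.17 to 16.2 RPM in day 4 tumours and 22.5 to 465 RPM in day 6 tumours. In these bulk samples, fewer cells of a type and less RNA per cell cannot be told apart.

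By mean, every chemokine with reads was higher in each tumour set than in the cultured line, and was highest at day 6. For Ccl5 the day 6 mean (73.1 against 63.3 RPM in Rag1-/- hosts) was higher but the median (57.8 against 64.7) was lower. The Cxcl11 medians were close, at 1.75 RPM at day 6 and 1.70 in Rag1-/- hosts. In RPM, Cxcl9 was 0 to 0.342 in culture, 2.26 to 26.0 at day 4, 9.47 to 26.4 in Rag1-/- hosts and 85.2 to 1133 at day 6. The day 6 libraries thus lay above all the others, while the day 4 and Rag1-/- ranges overlapped. Cxcl10 was 1.90 to 10.5 RPM in culture, 7.77 to 57.4 at day 4, 53.3 to 121 in Rag1-/- hosts and 69.0 to 155 at day 6. Its order by mean was culture, day 4, Rag1-/- hosts and day 6, and the ranges of each pair of neighbours in that order overlapped. Cxcl11 followed the same order at much lower levels, with 0 to 0.0342 RPM in culture, 0.0427 to 0.734 at day 4, 1.13 to 3.60 in Rag1-/- hosts and 0.870 to 4.10 at day 6. Here only the Rag1-/- and day 6 ranges overlapped.

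In Rag1-/- hosts and at day 4, Cxcl16 varied least from tumour to tumour. It was 0.386 to 2.08 RPM in culture, 27.1 to 57.1 at day 4, 50.2 to 67.1 in Rag1-/- hosts and 57.2 to 395 at day 6, and in Rag1-/- hosts its highest library was 1.34 times its lowest, against 1.95 times for Ccl5. Ccl5 was 3.26 to 14.9 RPM in culture, 7.27 to 31.3 at day 4, 41.9 to 81.7 in Rag1-/- hosts and 32.8 to 195 at day 6. The day 4 tumours thus held less Ccl5 than every Rag1-/- tumour and overlapped with the cultures. Cxcl13, the B cell attractant, had no read in 5 cultures and in 8 of 10 tumours in Rag1-/- hosts, was 0 to 0.477 RPM at day 4 and spread from 0.0495 to 5.99 RPM at day 6.

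The receptors took another order than Cxcl10, Cxcl11 and Ccl5, with day 4 above the Rag1-/- hosts. Cxcr3 had 1 read over the 5 cultures and ranged from 0.393 to 1.10 RPM in Rag1-/- tumours, from 0.473 to 2.69 at day 4 and from 0.823 to 21.7 at day 6. Ccr7 ranged from 0.570 to 4.37 RPM in culture, from 1.44 to 5.50 in Rag1-/- tumours, from 3.36 to 16.5 at day 4 and from 2.57 to 21.0 at day 6. Neighbouring ranges of both receptors overlapped from one tumour set to the next. The tables were made separately, so these levels across tables were not tested.

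**Figure D1:**
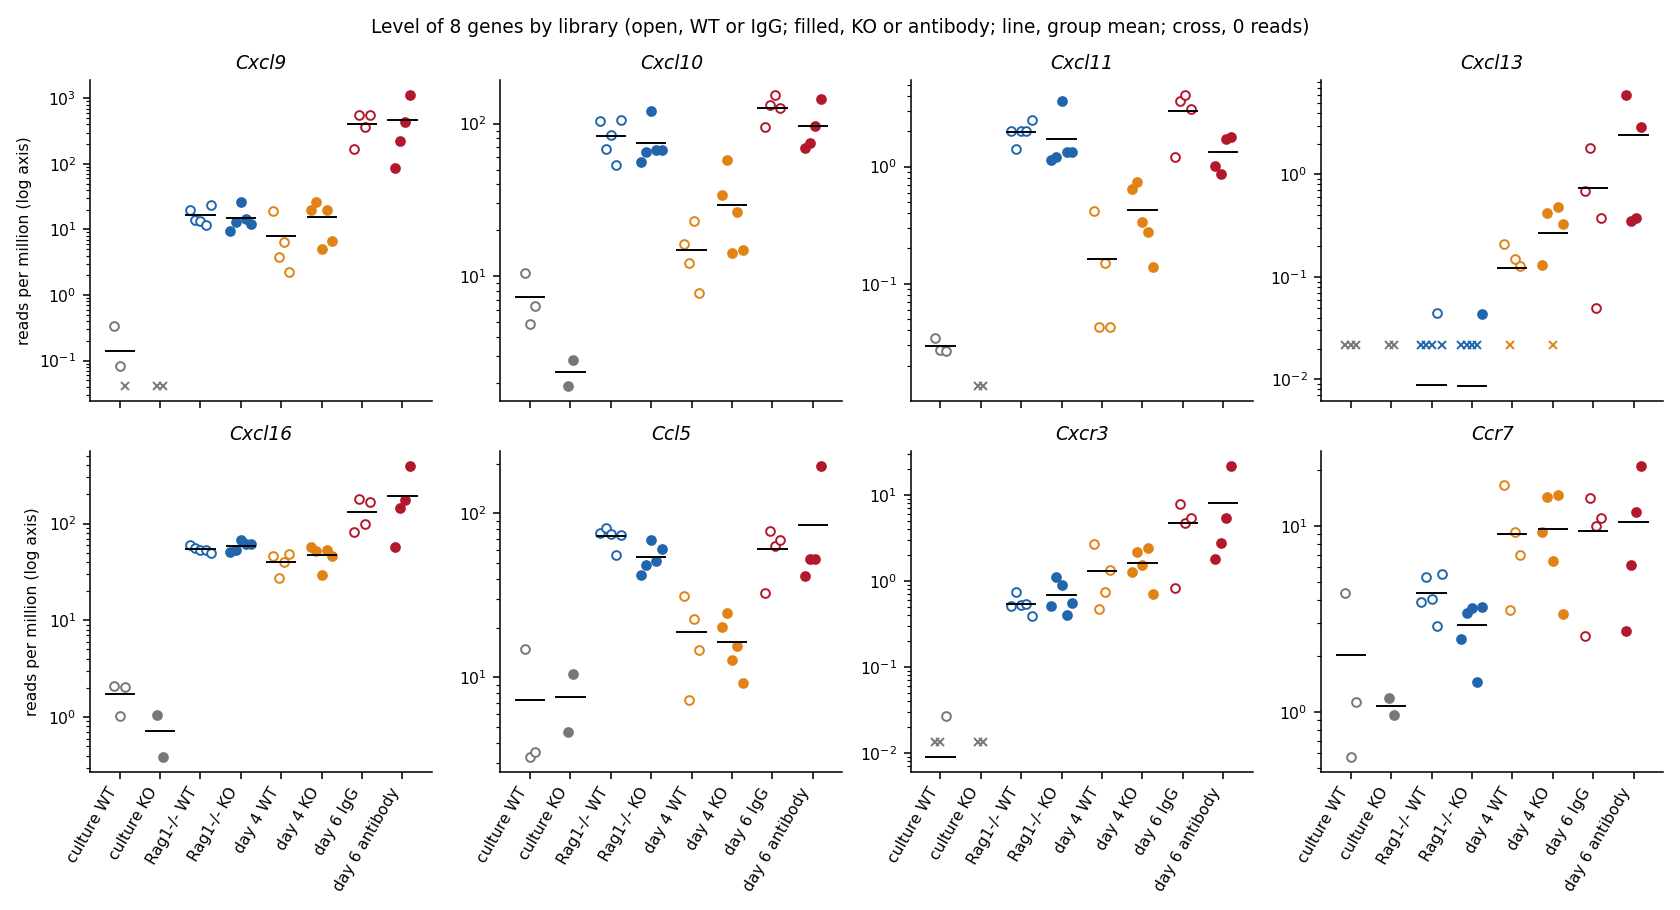
RPM (log axes, a scale of its own in each panel) of 8 of the genes in each of 32 libraries, by group, with open points for WT or IgG, filled points for KO or antibody, lines for group means and crosses for libraries with 0 reads. Cxcl9 reached 1133 RPM at day 6, and Cxcl10 and Ccl5 were lower by mean at day 4 than in Rag1-/- hosts.

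Per kilobase of exon, the leading gene changed between the tumour sets. Ccl5 led in culture with 7.67 ± 5.38 RPM per kb (SD, n = 5) and in Rag1-/- hosts with 66.0 ± 14.2 (n = 10), followed there by Cxcl10 at 35.1 ± 10.3 and Cxcl16 at 18.8 ± 1.85. At day 4, the means of Ccl5 (18.3 ± 8.12, n = 9), Cxcl16 (14.7 ± 3.46) and Cxcl10 (10.2 ± 6.76) RPM per kb lay within their spread of each other. At day 6, Cxcl9 led with 146 ± 109 RPM per kb (n = 8), above Ccl5 at 76.1 ± 53.4, Cxcl16 at 53.8 ± 34.6 and Cxcl10 at 49.7 ± 14.4, again with overlapping spreads. The receptors stayed low at day 6, with 5.04 ± 3.12 RPM per kb for Ccr7 and 3.65 ± 3.82 for Cxcr3.

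Ccl19 had 0 reads in all 32 libraries. At these depths a count of 0 allows up to 3 reads, or 0.0755 to 0.158 RPM per library, with counting error only. Of its 914 annotated stretches of 50 bases, 52.0% also occur in another annotated gene, among them the pseudogenes Ccl19-ps1 and Ccl19-ps3, and how the authors' counting treated such reads is not given in the sources used here. The count of 0 therefore does not show that Ccl19 RNA was absent. The like share on either strand was 40.4% for Cxcl11 (nearly all with Gm2673, on the opposite strand), 16.9% for Cxcl16 (with Zmynd15, opposite strand), 3.59% for Cxcl10 (with Art3, opposite strand), 0.472% for Cxcl9 and 0% for Cxcl13, Ccl5, Cxcr3 and Ccr7. The kit was stranded, but whether counting used strand is not given, so reads of the overlapped stretches are uncertain.

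The ratio of Cxcl9 to Cxcl10 reads is a measure within a library that needs no scaling for depth. It is not corrected for gene length. It was 0.0326 in E0771-P, 0.0169 in the EV culture and 0 in the other cultures. In Rag1-/- hosts it lay between 0.158 and 0.227 in all 10 tumours, with 0.200 ± 0.0273 in WT and 0.198 ± 0.0227 in KO (SD, n = 5 each). At day 4, 3 WT tumours lay at 0.280, 0.291 and 0.309 and WT tumour 1 at 1.18, and the KO tumours lay between 0.350 and 0.747. At day 6 every tumour had more Cxcl9 than Cxcl10 reads, with 1.78, 4.24, 2.33 and 4.37 for IgG and 1.23, 3.02, 4.51 and 7.76 for antibody. The day 6 libraries thus stood above every other library, with WT tumour 1 of day 4 next. Per kilobase of exon, the ratio was 0.921 in antibody tumour 1 and 1.33 to 5.79 in the other day 6 tumours. Ifng, an inducer of both ligands, reached 0.661 RPM in Rag1-/- tumours, 0.455 RPM in day 4 tumours and 11.9 RPM in day 6 tumours. Its part in the ratio was not tested.

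**Figure D2:**
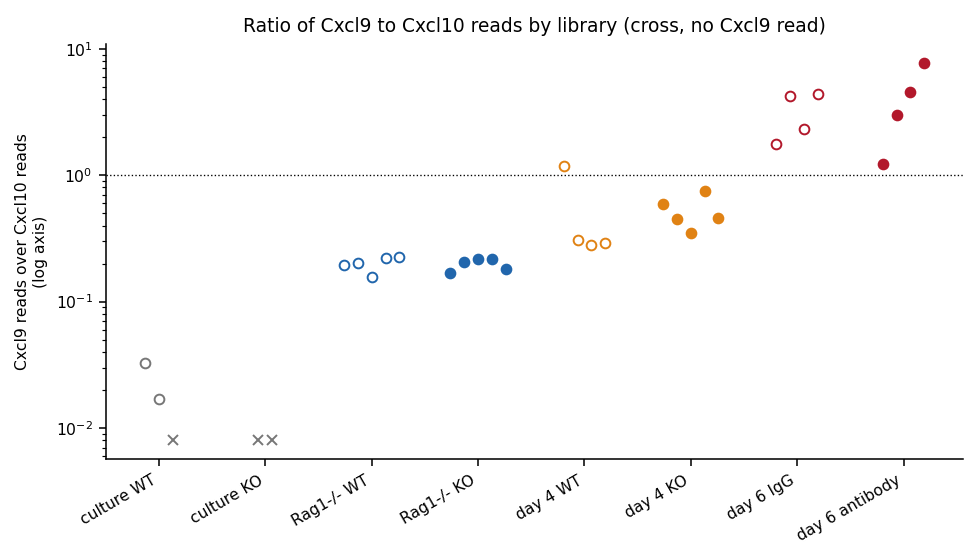
Cxcl9 reads divided by Cxcl10 reads in each library (log axis), by group, with open points for WT or IgG, filled points for KO or antibody, crosses for libraries without a Cxcl9 read and a dotted line at equal reads. All 10 tumours in Rag1-/- hosts lay between 0.158 and 0.227 and all 8 day 6 tumours between 1.23 and 7.76.

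In cultured cells, KO was compared with WT in the tumour line itself. Effects of Ddr1 loss cannot be told apart from other differences between the KO and WT lines. Among the 4 members past the filter, Cxcl10 was the one whose groups did not overlap. Its normalized counts (the authors' counts scaled by each library's size factor) were 360 in E0771-P, 165 in EV and 215 in Ctrl, against 65.0 and 98.4 in the KO lines. Both KO libraries lay below all WT libraries. The log2 change of normalized counts + 1 was −1.54 (SE 0.37, 0.345-fold), with an adjusted p of 0.0953 in limma, which missed the threshold of 0.05. The adjusted p was 0.00571 in DESeq2, 0.118 in edgeR, 0.0359 in limma without E0771-P and 0.0183 in the authors' deposited table. Groups that do not overlap were 36.2% of all 11911 genes tested here, so 1 such gene among the 4 tested is near the background.

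Cxcl16 normalized counts in culture were 71.5, 35.2 and 68.5 in WT and 35.7 and 13.5 in KO, overlapping between EV and line 3-6 (log2 change −1.30, SE 0.54, limma adjusted p = 0.259). Ccl5 was 512 in E0771-P, 111 in EV and 118 in Ctrl, and 158 and 369 in the KO lines, so E0771-P and line 3-7 were high (log2 change 0.35, SE 0.70, limma adjusted p = 0.836). Ccr7 was 150 in E0771-P and 19.5, 37.9, 40.9 and 33.8 in the others (log2 change −0.37, SE 0.79, limma adjusted p = 0.848). Without E0771-P its change was 0.44. The Ccr7 difference thus turned on 1 library. Limma called 0 of the 4 members tested, against 39 of 11911 genes (0.327%), with 2 at an unadjusted p under 0.05 beside 18.8% of all genes, 0 called by edgeR and 1 by DESeq2. The median log2 change was −0.83 over the 4 and 0.00346 over all genes. Of the pathway and marker lists, 1 gene passed in culture, Fcer2a (CD23, a marker of follicle cells and B cells), with 52.3 ± 7.07 in WT and 0.482 ± 0.682 in KO (limma adjusted p = 0.0285).

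The other members were below a mean normalized count of 10 in culture and outside that fit. Cxcl9 had 10 reads in E0771-P, 3 in EV and 0 in the others, and Cxcl11 had 1 read in each WT library and 0 in KO. With 3 libraries against 2, an exact permutation test cannot go below a p of 0.2, the value it gave for Cxcl11.

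In Rag1-/- hosts the same comparison was made where T and B cells are missing. Here too, Ddr1 loss cannot be told apart from other differences between the KO and WT cells. Ccl5 was lower in KO tumours, and no other of these genes passed the test. Its normalized counts were 1616, 1751, 1615, 1210 and 1558 in WT tumours 1 to 5. In KO tumours 1 to 5 they were 884, 1020, 1425, 1075 and 1261. WT tumour 4 lay among the KO values, and the other WT tumours lay above all KO tumours. The mean was 1550 ± 203 in WT and 1133 ± 212 in KO (SD, n = 5 each), which is 0.727-fold (log2 change −0.46, SE 0.12, limma adjusted p = 0.0150). The call was 1 of 7 members tested, beside 2904 of 12795 genes (22.7%), so the share of calls among these genes was near the background. In the authors' deposited table the adjusted p for Ccl5 was 0.0166.

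None of the interferon-inducible ligands passed the test between WT and KO tumours in Rag1-/- hosts. Cxcl10 normalized counts were 2204, 1465, 1826, 1161 and 2203 in WT and 1187, 1355, 2485, 1413 and 1399 in KO. KO tumour 3 was the highest of all and the other KO tumours lay at 1413 or below. The log2 change was −0.19 (SE 0.20, limma adjusted p = 0.533). Cxcl9 had 353 ± 105 in WT and 316 ± 134 in KO (log2 change −0.20, SE 0.24, limma adjusted p = 0.583), with KO tumour 3 again highest at 544. Cxcl11 had 43.4, 30.2, 43.3, 43.5 and 52.6 in WT and 23.9, 25.2, 74.2, 28.2 and 27.9 in KO. Thus 4 KO tumours lay below all WT tumours and KO tumour 3 above them (log2 change −0.36, SE 0.28, limma adjusted p = 0.375). Without KO tumour 3 the log2 change of Cxcl11 was −0.66 with an adjusted p of 0.0237.

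Cxcl16 differed least in Rag1-/- hosts, with 1170 ± 84.3 in WT and 1232 ± 131 in KO (log2 change 0.07, SE 0.08, limma adjusted p = 0.535). Among the receptors, Ccr7 had 83.5, 114, 87.7, 62.9 and 115 in WT and 52.1, 71.4, 74.2, 30.3 and 76.5 in KO. Only WT tumour 4 lay within the KO range. The log2 change was −0.64 (SE 0.25) with a limma adjusted p of 0.0776, above the threshold, against 0.0497 in DESeq2 and 0.0438 in limma without WT tumour 4. Cxcr3 had 11.6 ± 2.78 in WT and 14.5 ± 6.13 in KO (log2 change 0.23, SE 0.30, limma adjusted p = 0.620). Groups that do not overlap were 0 of the 7 members and 15.0% of all genes tested.

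Among the other chemokine and receptor genes tested in Rag1-/- hosts, 5 passed the test, in both directions, against the background of 22.7% of all genes. Of 6 tested among 13 further lymphocyte attractants, 1 rose (Ccl25, a Ccr9 ligand, 98.7 to 129, log2 change 0.41, SE 0.13) and none fell. Of 13 tested myeloid attractants, 2 fell, the Ccr2 ligands Ccl2 (4296 to 3286, log2 change −0.40, SE 0.13) and Ccl7 (2919 to 2139, log2 change −0.47, SE 0.14). Of 6 tested chemokine receptors, 2 rose, the scavenging receptor Cxcr7, now named Ackr3 (1892 to 3040, log2 change 0.70, SE 0.13), and the Ccl5 receptor Ccr1 (223 to 285, log2 change 0.37, SE 0.11). Median log2 changes were −0.18 for the lymphocyte attractants, −0.07 for the myeloid attractants and 0.10 for the receptors, against −0.00347 over all genes. The limma adjusted p of the 5 genes that passed ran from 0.00238 for Cxcr7 to 0.0432 for Ccl25.

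Of 10 tested genes of the interferon gamma pathway, 1 rose and 1 fell in Rag1-/- hosts, near the background of 22.7% of all genes. The rise was in Irf8, a transcription factor of macrophages and dendritic cells (660 to 929, log2 change 0.49, SE 0.07, limma adjusted p = 4.87e-04). Of 11 tested lymphotoxin and NF-kB genes, at a share also near that background, 3 fell and none rose. They were the lymphotoxin receptor gene Ltbr (3965 to 3395, log2 change −0.22, SE 0.05), the kinase gene Map3k14 that acts below it (876 to 646, log2 change −0.43, SE 0.08) and the NF-kB subunit gene Relb (1221 to 1053, log2 change −0.22, SE 0.07). Their limma adjusted p values were 0.00769, 0.00236 and 0.0370.

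Cell type markers in Rag1-/- hosts gave 0 calls among those tested for T, B and natural killer cells, neutrophils, endothelium, fat and muscle. In that order, 2, 3, 7, 2, 6, 3 and 4 markers were tested, beside a background of 22.7% of all genes called. With so few markers, 0 calls does not show that these cell types were alike in WT and KO tumours. The calls were Fscn1 lower among dendritic cell markers, Mrc1 higher and Ly6c2 lower among macrophage and monocyte markers, Clu lower among lymph node stroma markers, Pdgfra higher and Pdgfrb lower among fibroblast markers, and Epcam higher among epithelial markers. For these lists 6, 10, 3, 6 and 5 markers were tested, in that order. Fscn1 made up most of its list in cultured cells too. There the dendritic list summed to 487 to 588 RPM, with Clec9a, Cd209a and Siglech at 0. In the same cultures the lymph node stroma list summed to 147 to 235 RPM and the fibroblast list to 168 to 914. Neither sum therefore measures host stroma alone. The natural killer markers summed to 15.8 to 23.7 RPM in WT and 12.4 to 29.1 in KO, and the macrophage and monocyte markers to 823 to 993 and 759 to 1198. Their part in the Ccl5 difference was not tested.

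At day 4 in C57BL/6 hosts, where T and B cells can enter, none of these genes passed the test between KO and WT tumours. Among those tested with limma, Cxcl10 and Cxcl9 had the largest differences, with higher means in KO. Cxcl10 normalized counts were 380, 291, 557 and 182 in WT and 730, 1265, 332, 606 and 353 in KO. The highest WT tumour, number 3, lay above KO tumours 3 and 5, and the log2 change was 0.83 (SE 0.43, limma adjusted p = 0.395). Cxcl9 had 448, 89.7, 156 and 52.9 in WT and 429, 574, 116, 453 and 161 in KO. WT tumour 1 was the lone high WT value and KO tumours 3 and 5 were low (log2 change 1.10, SE 0.65, limma adjusted p = 0.454).

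The remaining genes tested at day 4 differed by less. Cxcl16 had 959 ± 219 in WT (n = 4) and 1082 ± 224 in KO (n = 5) (log2 change 0.18, SE 0.21, limma adjusted p = 0.729). Ccl5 had 730, 174, 549 and 341 in WT and 436, 547, 300, 354 and 219 in KO, all KO values within the WT range (log2 change −0.15, SE 0.40, limma adjusted p = 0.886). The lower Ccl5 of KO tumours in Rag1-/- hosts thus had no counterpart past the threshold here, and the difference between hosts was not tested. Cxcr3 had 30.8 ± 22.9 in WT and 36.5 ± 15.4 in KO (log2 change 0.40, SE 0.52, limma adjusted p = 0.749), and Ccr7 had 214 ± 128 and 217 ± 108 (log2 change 0.04, SE 0.50, limma adjusted p = 0.978).

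Cxcl11 and Cxcl13 were below a mean of 10 at day 4. Cxcl11 had 9.81, 1.03, 3.60 and 0.998 in WT and 14.0, 16.2, 7.90, 6.39 and 3.33 in KO, and the exact two-sided permutation test gave p = 0.111. Cxcl13 had 4.91, 0, 3.60 and 2.99 in WT and 2.80, 9.24, 0, 10.96 and 7.77 in KO (exact permutation p = 0.444). The smallest p this design allows is 0.0159, and neither p is adjusted. Limma called 0 of 6 members tested, with 0 at an unadjusted p under 0.05 and 0 in edgeR and DESeq2, and 5 of 14105 genes (0.0354%). Groups that do not overlap were 0 of 6 members and 5.76% of all genes. The median log2 change was 0.29 over the members and 0.00277 over all genes.

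No gene of the pathway or marker lists passed the test at day 4. Nearest by p among lymphocyte attractants was Ccl17 (8.03 ± 7.99 to 18.9 ± 11.01, limma adjusted p = 0.359), a Ccr4 ligand of dendritic cells. In the interferon gamma pathway it was Ido1, a tryptophan-degrading enzyme (1.56 ± 0.535 to 65.5 ± 69.6, limma adjusted p = 0.298). The T cell markers summed to 4.17 to 12.03 RPM in WT and 5.09 to 16.2 in KO tumours, and the macrophage and monocyte markers to 1146 to 3100 and 1043 to 3284. WT tumour 1 and KO tumours 1, 2 and 4 had the highest T cell marker sums, 11.9 to 16.2 RPM against 4.17 to 5.97 in the rest, and also the 4 highest Cxcl9 counts. The same 4 tumours were highest for macrophage and monocyte markers (2181 to 3284 RPM against 1043 to 1638), fibroblast markers (4131 to 5789 against 1339 to 2025), natural killer markers (24.5 to 36.7 against 6.03 to 21.1) and adipocyte markers (250.2 to 2768 against 33.1 to 199.96). The endothelial and neutrophil lists did not follow this split. Endothelial markers were lowest in WT tumour 1 (70.6 RPM) and highest in KO tumours 1, 2 and 4 (470 to 922). Neutrophil markers were highest in WT tumour 4 (599 RPM). The median log2 change was 3.78 for the 5 adipocyte markers, 4.01 for the 6 epithelial and 1.20 for the 6 endothelial markers. None of them passed. The summed epithelial markers overlapped, however, at 480 to 624 RPM in WT (median 538) and 477 to 1101 in KO tumours (median 565). The part of these cells in the Cxcl9 and Cxcl10 differences was not tested.

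**Figure D3:**
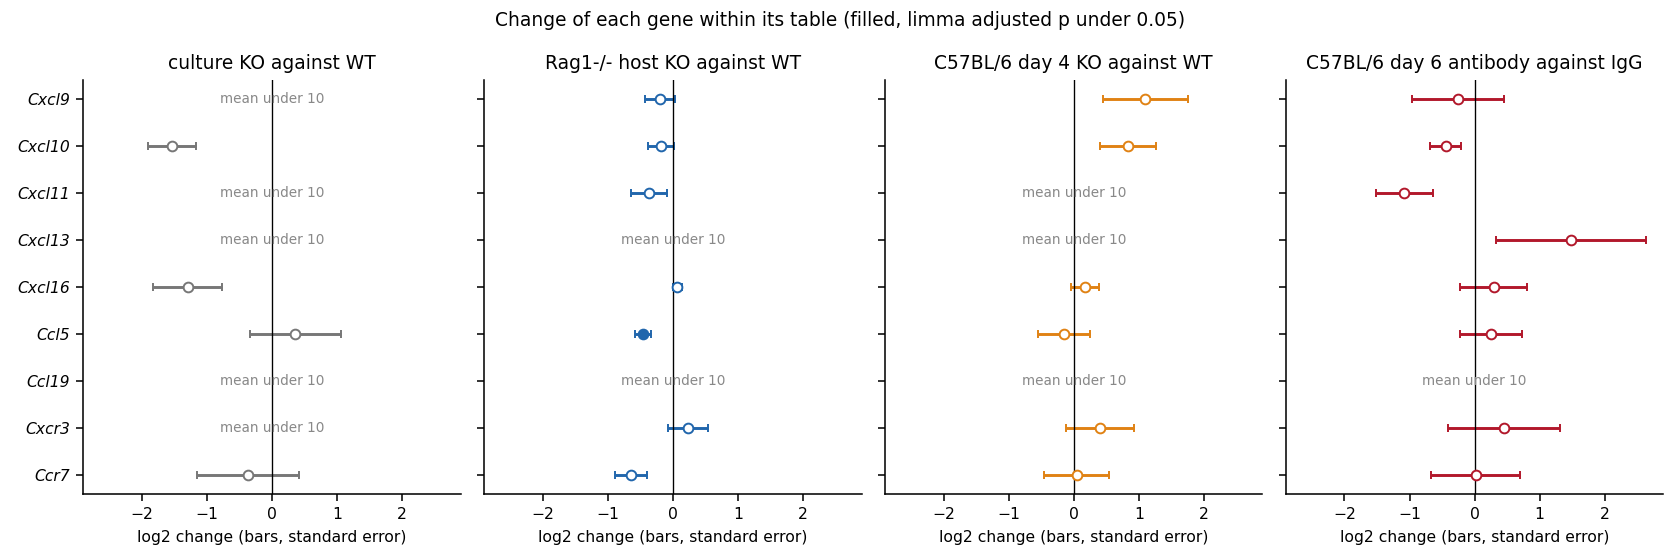
Log2 change of normalized counts + 1 for each gene in each table (KO minus WT, or antibody minus IgG), with bars of 1 standard error and filled points for a limma adjusted p under 0.05. The filled point is Ccl5 in Rag1-/- hosts at −0.46, and genes with a mean under 10 were not tested.

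At day 6, antibody-treated and IgG-treated tumours overlapped for all 8 members tested. Cxcl11 and Cxcl10 had lower means with antibody. Cxcl11 normalized counts were 36.1, 110, 122 and 90.0 with IgG and 30.1, 26.5, 48.5 and 54.0 with antibody. All antibody tumours lay below IgG tumours 2 to 4, and IgG tumour 1 lay among them. The log2 change was −1.08 (SE 0.44), with an unadjusted p of 0.0344 and a limma adjusted p of 0.517. Cxcl10 had 2870, 4025, 4599 and 3671 with IgG and 2064, 2266, 2761 and 4382 with antibody, where 3 antibody tumours lay below all IgG tumours (log2 change −0.45, SE 0.24, limma adjusted p = 0.517).

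Cxcl9 counts spread over an order of magnitude within the antibody group. They were 5104, 17074, 10732 and 16048 with IgG and 2547, 6841, 12461 and 33999 with antibody. The antibody group held both the lowest and the highest tumour (log2 change −0.26, SE 0.71, limma adjusted p = 0.895). Cxcl16 had 2459, 5494, 2973 and 4851 with IgG and 1710, 4363, 4950 and 11847 with antibody, with the same lowest and highest tumours (log2 change 0.29, SE 0.52, limma adjusted p = 0.825). Ccl5 had 986, 2385, 1870 and 1990 with IgG and 1237, 1601, 1502 and 5843 with antibody (log2 change 0.25, SE 0.47, limma adjusted p = 0.839). Antibody tumour 4 was thus highest for Cxcl9, Cxcl16 and Ccl5.

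Cxcl13 did not share that order. It had 20.6, 55.7, 1.47 and 10.9 with IgG and 179, 10.8, 10.7 and 88.2 with antibody, highest in antibody tumour 1, where Cxcl9 and Cxcl16 were lowest (log2 change 1.49, SE 1.15, limma adjusted p = 0.589). For the receptors, Cxcr3 had 24.8, 238, 141 and 156 with IgG and 54.2, 84.4, 154 and 651 with antibody (log2 change 0.45, SE 0.86, limma adjusted p = 0.839). Ccr7 had 77.4, 432, 297 and 318 with IgG and 81.3, 188, 340 and 631 with antibody (log2 change 0.01, SE 0.68, limma adjusted p = 0.994). IgG tumour 1 was lowest and antibody tumour 4 highest for both.

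Limma called 0 of 8 members at day 6, with 1 at an unadjusted p under 0.05 and 0 in edgeR and DESeq2. It called 0 of 14155 genes (0.0%), with 1218 at an unadjusted p under 0.05, 0 in edgeR and 166 in DESeq2. Groups that do not overlap were 0 of 8 members and 3.9% of all genes. The median log2 change was 0.13 over the members and −0.0121 over all genes. No gene of the pathway or marker lists passed. Nearest by p were Ccl6 among myeloid attractants (3854 ± 1047 to 7209 ± 3246) and Ackr2, a scavenging chemokine receptor (6.01 ± 1.48 to 19.8 ± 7.52), each with a limma adjusted p of 0.517. The median log2 change with antibody was 3.30 for the 6 epithelial markers, 3.48 for the 5 adipocyte markers and −4.92 for the 5 muscle markers. The epithelial markers summed to 183 to 206 RPM with IgG and 253 to 401 with antibody, and the dendritic cell markers to 349 to 497 and 500.1 to 563, so neither list overlapped between the groups. The dendritic list reached 487 to 588 RPM in the cultured line alone, mostly from Fscn1, so its sum does not measure dendritic cells alone. The part of these markers in the chemokine differences was not tested.

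Several immune cell marker lists also spread widely within the day 6 groups. The summed level of the T cell markers was 22.5, 202, 168 and 148 RPM with IgG and 30.2, 63.4, 116 and 465 with antibody, so that IgG tumour 1 and antibody tumour 1 were lowest and antibody tumour 4 highest. Ifng was 0.377, 5.20, 7.32 and 5.70 RPM with IgG and 0.755, 1.58, 2.98 and 11.9 with antibody, in the same order within the antibody group. The macrophage and monocyte markers summed to 2657, 5152, 2751 and 4455 RPM with IgG and 2200, 3999, 4324 and 9654 with antibody. Within each group, the macrophage and monocyte sums ranked the tumours as Cxcl9 and Cxcl16 did. The T cell sums and Ifng placed IgG tumour 3 above IgG tumour 4, unlike those ligands. Cxcl10 (155 against 127 RPM) and Cxcl11 (4.10 against 3.13 RPM) were also higher in IgG tumour 3 than in IgG tumour 4. Cxcl13 followed neither list, being highest in antibody tumour 1. The natural killer markers ranged from 19.2 to 80.1 RPM with IgG and 20.6 to 143 with antibody. The part of any of these cells in the chemokine levels was not tested.

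**Figure D4:**
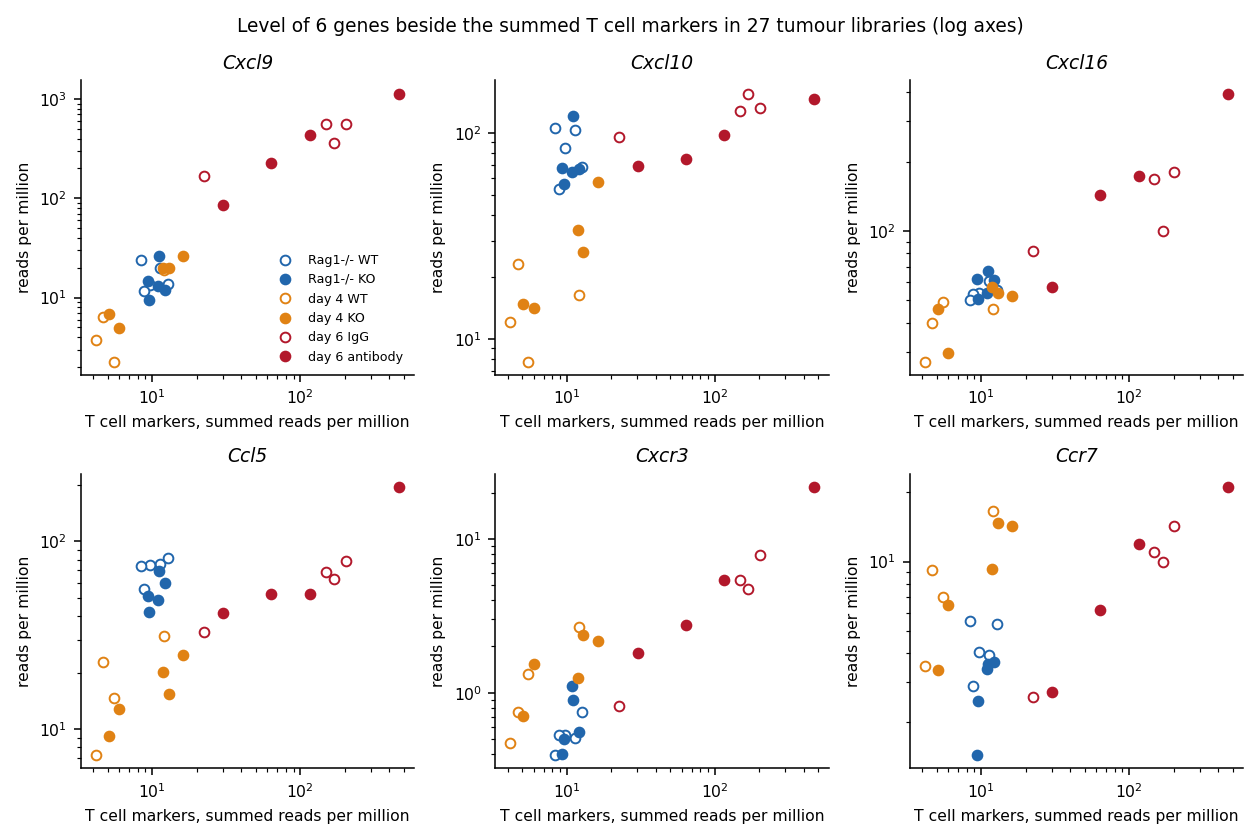
RPM of 6 of the genes against the summed RPM of the 9 T cell markers in 27 tumour libraries (log axes), coloured by tumour set, with open points for WT or IgG and filled points for KO or antibody. Antibody tumour 4 of day 6 is at the upper right at 465 RPM of markers. Whatever the marker level, all tumours in Rag1-/- hosts have more Ccl5, and most have more Cxcl10, than the day 4 tumours. Rag1-/- hosts lack mature T cells, yet their sums of 8.35 to 12.8 RPM lie within the day 4 range of 4.17 to 16.2. Sums this low therefore need not come from T cells.

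How far the genes varied together from tumour to tumour differed between the sets. The measure was Pearson's r of log2(normalized count + 1) after subtracting each group's mean, for the 6 members with a mean of 10 or more in every tumour table. It is a description, since points share library, depth and cell mixture. Cxcl9 and Cxcl10 had r = 0.92 over 10 tumours in Rag1-/- hosts, 0.79 over 9 at day 4 and 0.88 over 8 at day 6. The receptors Cxcr3 and Ccr7 had r = 0.54, 0.88 and 0.97. Between ligand and receptor, Cxcl10 and Cxcr3 had r = 0.06 (Rag1-/- hosts), 0.22 (day 4) and 0.92 (day 6), and Cxcl9 and Cxcr3 had 0.08, 0.57 and 0.93. At day 6 all 15 pairs lay between 0.80 and 0.97, in a set where antibody tumour 4 was highest for 5 of the 6 genes.

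**Figure D5:**
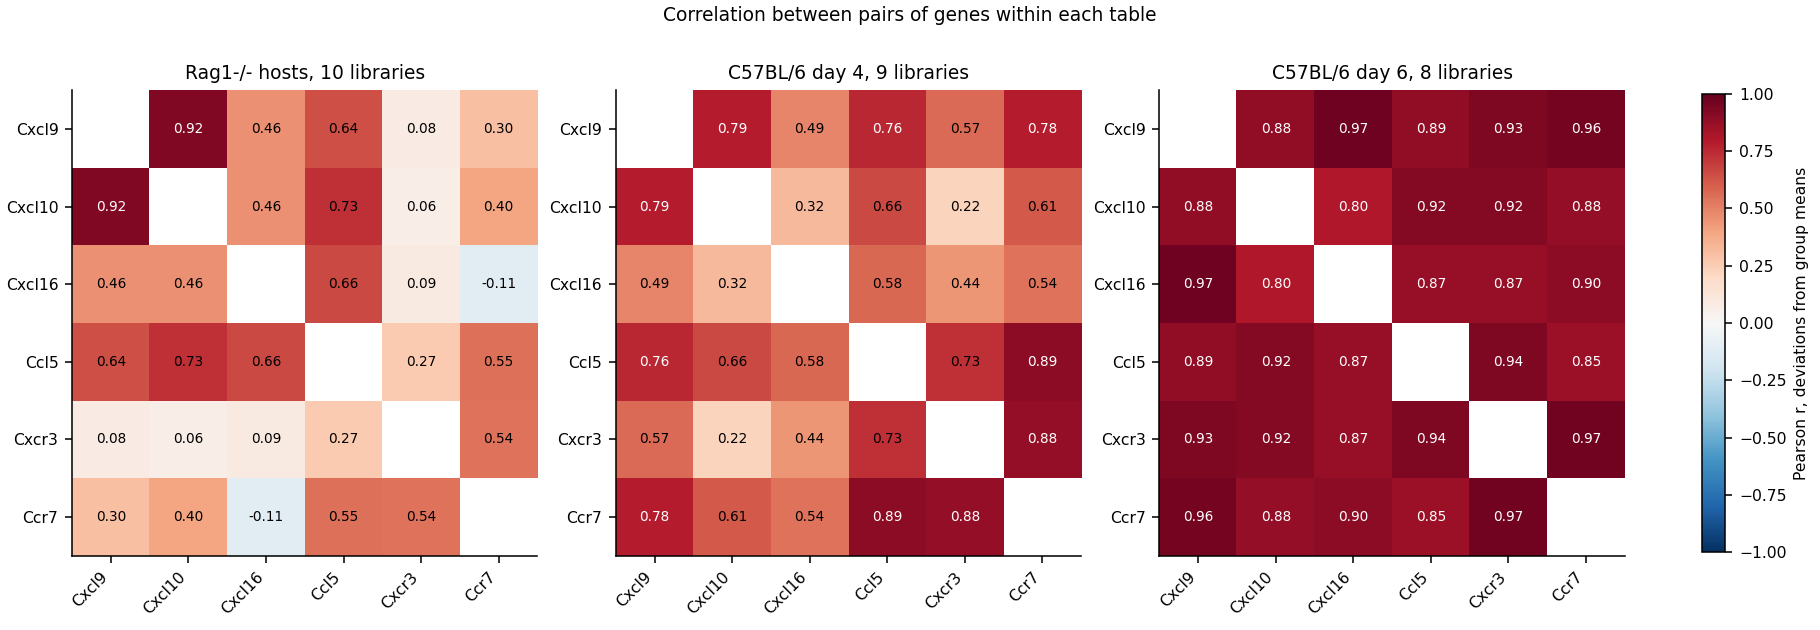
Pearson's r between pairs of genes within each tumour table, of log2(normalized count + 1) as deviations from the group means, from blue (−1) to red (1). The values run from −0.11 to 0.92 in Rag1-/- tumours, from 0.22 to 0.89 in day 4 tumours and from 0.80 to 0.97 in day 6 tumours.

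Among 11205 other genes with a mean of 10 or more in every tumour table, those most like each member over the 27 tumours, by the same measure, were as follows. For Cxcl9 they were Il18bp (r = 0.93), which encodes a binding protein of interleukin 18, Gca (0.92) and Ly86 (0.91). For Cxcl10 they were Iigp1 (0.86), an interferon-inducible GTPase gene, Trafd1 (0.86) and Sp110 (0.85). Within the tables, Cxcl10 and Iigp1 had r = 0.98 (Rag1-/- hosts), 0.81 (day 4) and 0.97 (day 6).

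Cxcl16 was most like Bcl2a1b (0.95), Arrb2 (0.94) and Lat2 (0.94), although its r with Bcl2a1b was 0.30 in Rag1-/- hosts. Ccl5 was most like AW112010 (0.87), with Ucp2 (0.85) also among its nearest 3. Cxcr3 was most like Lag3 (0.93), which encodes an inhibitory receptor of activated T cells, Ctsw (0.93), a protease gene of cytotoxic lymphocytes, and Sema4a (0.92). Ccr7 was most like Ccl22 (0.93), a chemokine gene of mature dendritic cells, Xcl1 (0.93), a chemokine gene of natural killer and CD8 T cells, and Klrk1 (0.93), the gene of the receptor NKG2D. For Cxcr3 and Lag3 r was 0.41 (Rag1-/- hosts), 0.94 (day 4) and 0.98 (day 6).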

How the data were processed

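RNA was sequenced from cultured E0771 cells and from tumours, 32 libraries in 8 groups taken from the samples' titles and characteristics. RNA was extracted with Trizol and made into stranded mRNA libraries from about 500 ng, per the labels' protocols. CASAVA, TopHat, DESeq2 and build mm10 are named, without versions, in the submitters' processing notes. How reads were counted, on which annotation and with or without strand is not given in the sources used here.

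The authors deposited 4 tables of normalized signal, which are read counts scaled by the size factor of each library, beside their own p-values and adjusted p-values. Each library's values were whole multiples of 1 step, and dividing by it gave whole reads within 0.01, from which depth and RPM were computed. Another 18 columns were not used. Since each table had its own normalization, no test crosses tables.

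Log2(normalized count + 1) was tested with limma-trend (limma 3.58.1, R 4.3.3) for genes whose table mean was at least 10, with the 2 groups of the table, no covariate, and Benjamini-Hochberg adjustment over all genes (threshold 0.05, two-sided). Folds on this scale understate changes of low genes. Genes under the filter had exact permutation tests with scipy 1.17.1. The code was tested on simulated data. Alternatives were pseudocounts of 0.5 and 5, no filter, upper-quartile rescaling, tests of the recovered reads with edgeR 4.0.16 and with DESeq2 1.42.0, a block for replicate number, and leaving out each library. The design had allowed for normalized values.

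The members, the 17 gene lists and the rules were chosen with earlier results of these data known. List genes named are up to 3 past the threshold of smallest p, or the 1 of smallest p where none passed. Some genes that these rules picked are not reported here. Symbols were matched through RefSeq synonyms, and positions come from GENCODE on GRCm38. Intervals for 0 reads cover counting error only.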

Additional observations from a re-analysis of the deposited data

Results flagged for a closer look

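In groups of 4 to 10 libraries, a library was taken as far from the others when its gap to the nearest was a large share of the group's range by Dixon's criterion. This held for 5 of 46 groups checked. The criterion's rate of about 1 in 20 is for independent, normally distributed values. These checks used untransformed counts and shared libraries, so that rate need not apply. KO tumour 3 in Rag1-/- hosts was highest for Cxcl10 at 2485 normalized counts, with the others at 1187 to 1413. The same tumour was highest for Cxcl11 at 74.2, with the others at 23.9 to 28.2. KO tumour 3 of day 4, another tumour, was lowest for Cxcl16 at 696, with the others at 1094 to 1235. Antibody tumour 4 of day 6 was highest for Ccl5 at 5843, with the others at 1237 to 1601. It was also highest for Cxcr3 at 651, with the others at 54.2 to 154.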

How the results depend on the processing

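The lower Ccl5 of KO tumours in Rag1-/- hosts kept its direction and its side of the threshold under every alternative run. Of 379 member values under alternatives, 350 kept direction and side, 23 changed sign without passing the threshold in either fit, and 6 passed it where the limma fit had not. The cause of these shifts was not tested. The 6 were Cxcl10 in culture (DESeq2 −1.60, adjusted p = 0.00571, and without WT replicate 1), Cxcl11 in Rag1-/- hosts (without KO replicate 3) and Ccr7 in Rag1-/- hosts (DESeq2 −0.61, replicate block −0.64, and without WT replicate 4).

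Sign changes with one library left out gave these ranges of log2 change. In culture they were −0.25 to 1.07 for Ccl5 and −1.005 to 0.44 for Ccr7. At day 4 they were −0.54 to 0.15 for Ccl5, −0.33 to 0.39 for Ccr7 and −1.31e-05 to 0.33 for Cxcl16. At day 6 they were −0.88 to 0.37 for Cxcl9, −0.17 to 0.76 for Cxcl16, −0.26 to 0.49 for Ccl5, −0.27 to 0.92 for Cxcr3 and −0.52 to 0.53 for Ccr7. The day 6 Cxcl9 change was 0.20 in edgeR and in DESeq2. The day 4 Ccl5 change was 0.0218 with the replicate block, which drops KO replicate 5.

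Genes called in culture were 39 in limma, 25 in edgeR, 1055 in DESeq2 and 2 to 1655 with one library left out. At day 4 they were 5 in limma, 689 in DESeq2, 9 with no filter, 2 with the block and 3 to 50 with one library left out. At day 6 they were 0 in limma, 166 in DESeq2 and 0 to 5 with one library left out. Members called were 1 in culture in DESeq2 and 0 to 1 with one library left out. In Rag1-/- hosts they were 2 in DESeq2, 2 with the block and 1 to 2 with one library left out, where the genes called were 3169, 2411 and 1984 to 3093, against 2904 in the limma fit.

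Whether the replicate numbers pair the samples is not known. Same-numbered libraries had correlations of their deviations from −0.204 to 0.146 in Rag1-/- tumours, from −0.174 to 0.144 in day 4 tumours and from −0.198 to 0.446 in day 6 tumours. Libraries of different number were not compared, so these values do not settle it. No paired analysis was possible in culture because the numbers there only name the lines. Depth limits Cxcl13 most outside day 6, with 2 reads in all in Rag1-/- hosts and 45 at day 4, and Cxcl11 in culture and at day 4, with 3 and 68 reads in all.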
